A study of Mus musculus with 9 samples.

Results

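The transcripts described here are RNAs that the authors assembled from mouse liver reads and added to their lncRNA table under identifiers of their own, outside the annotation. A member is a transcript with such an identifier whose FPKM (fragments counted per length of transcript and per size of the library) was at least 0.1 in at least 3 of the 9 libraries. Of 2478 assembled transcripts 1542 met this rule, in a table of 54836 transcripts of which 22984 met the same minimum. The members were thus chosen by their FPKM values, and their levels are given as a description. The members fell into 1237 loci, and 185 loci held more than 1 member, so members of a locus share sequence and reads and are not independent.

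The livers came from wild-type C57 BL6 mice of 8 weeks and about 20 g. Control mice received saline. APAP mice received acetaminophen, an analgesic that injures the liver in overdose, at 500 mg/kg into the peritoneum. The dmPGE2+APAP mice received 300 µg/kg dmPGE2, a long-lived analogue of prostaglandin E2, intraperitoneally 1 h ahead of an equal dose of APAP. All livers were taken at 6 h, with 3 libraries a group, and APAP was the agent that both treated groups shared. The control columns carry the name BC, which the labels do not define. Since every other column is named for a treated group, these were taken as the controls. Whether the 3 libraries of a group are separate animals is not stated outright, so p-values measure the spread between these libraries.

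Much RNA in a cell comes from stretches between annotated genes. Some of it is made as separate long noncoding RNAs, some in the opposite direction from active promoters, and some past the ends of genes when transcription runs on beyond the cleavage site. Such downstream RNA is known to accumulate under heat, osmotic and oxidative stress, and the nuclear exosome normally removes much of the short-lived RNA made at promoters. Hepatocytes injured by acetaminophen lose glutathione and switch on antioxidant genes, p53 targets and immediate early genes.

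The names in the table tell 3 kinds of member apart. LINC names, with 544 members, stand for loci between genes. OT names, with 706 members, carry the symbol of a gene that they overlap on the same strand, by the usual meaning of this suffix. AS names, with 292 members, carry the symbol of a gene that they overlap in antisense. The files give no strand for any member, so these directions rest on the names.

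For 16 of the members called in APAP against control, 1 end of the locus lay inside a window of 300 bases around an annotated RefSeq start, 250 before it to 50 from it (GRCm38.p6). This was 13.6% of the 118 called members whose ends were searched, 9 of 96 that rose and 7 of 22 that fell, against 25.5% of all 1505 members searched. Of these windows 5 are shown because they place members that rose or fell near a known start, with a locus end 1 to 189 bases from it. Capitals mark the bases that lie inside the assembled locus. The windows are those of Srxn1 (chr2:152105274-152105573, plus strand) for Srxn1-OT1, 4931408D14Rik (chr19:37264046-37264345, minus strand) for LINC409, Gm32840 (chr15:97043890-97044189, plus strand) for Slc38a4-AS1, Gm36691 (chr2:173148083-173148382, minus strand) for LINC492 and Cyp2e1 (chr7:140763569-140763868, plus strand) for LINC766.
Srxn1 window: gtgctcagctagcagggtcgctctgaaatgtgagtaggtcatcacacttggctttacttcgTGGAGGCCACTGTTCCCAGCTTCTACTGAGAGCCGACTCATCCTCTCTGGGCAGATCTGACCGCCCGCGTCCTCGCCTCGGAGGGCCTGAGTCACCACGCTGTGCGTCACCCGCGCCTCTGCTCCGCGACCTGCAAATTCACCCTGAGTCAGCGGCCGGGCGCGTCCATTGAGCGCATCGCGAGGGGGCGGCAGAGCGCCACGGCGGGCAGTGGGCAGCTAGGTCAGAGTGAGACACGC
4931408D14Rik window: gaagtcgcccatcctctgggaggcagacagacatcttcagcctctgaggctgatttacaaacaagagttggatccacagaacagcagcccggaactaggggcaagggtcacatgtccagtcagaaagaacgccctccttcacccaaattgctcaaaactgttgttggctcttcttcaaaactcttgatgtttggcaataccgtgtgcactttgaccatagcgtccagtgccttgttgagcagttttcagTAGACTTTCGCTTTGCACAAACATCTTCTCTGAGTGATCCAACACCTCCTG
Gm32840 window: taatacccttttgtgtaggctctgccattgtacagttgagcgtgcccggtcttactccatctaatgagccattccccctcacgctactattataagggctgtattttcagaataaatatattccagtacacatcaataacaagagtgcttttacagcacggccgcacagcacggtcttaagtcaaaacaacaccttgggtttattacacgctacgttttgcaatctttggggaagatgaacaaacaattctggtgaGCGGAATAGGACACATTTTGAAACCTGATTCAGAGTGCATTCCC
Gm36691 window: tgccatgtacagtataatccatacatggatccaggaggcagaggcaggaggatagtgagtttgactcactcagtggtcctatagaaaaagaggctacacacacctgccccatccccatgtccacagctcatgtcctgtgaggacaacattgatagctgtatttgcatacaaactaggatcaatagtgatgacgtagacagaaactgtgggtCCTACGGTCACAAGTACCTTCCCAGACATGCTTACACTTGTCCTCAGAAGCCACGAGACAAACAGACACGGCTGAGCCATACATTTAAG
Cyp2e1 window: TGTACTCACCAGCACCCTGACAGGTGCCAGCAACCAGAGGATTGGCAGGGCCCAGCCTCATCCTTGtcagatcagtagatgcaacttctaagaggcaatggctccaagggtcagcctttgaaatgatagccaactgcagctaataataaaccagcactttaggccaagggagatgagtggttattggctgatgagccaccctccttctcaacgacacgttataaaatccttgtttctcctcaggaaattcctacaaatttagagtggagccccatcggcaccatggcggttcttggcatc

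The end of the LINC409 locus lay 1 base from the start of 4931408D14Rik, and that of Slc38a4-AS1 lay 6 bases from the start of Gm32840. The Srxn1 window held the letters TGANTCA, a pattern wider than the core that AP-1 factors bind, at positions 149 and 206, counted from 1 at its 5′ end. Both matches read TGAGTCA. The Srxn1 window also held TGACNNNGC, the core of the antioxidant response element that NRF2 binds, on the other strand from position 279. All of these lay in the capitals. The Gm32840 and Gm36691 windows held TGANTCA once each, at positions 282 (TGATTCA) and 62 (TGACTCA). Among windows not shown, TGACNNNGC lay in those of Rab36-AS1, which fell (positions 48 and 64), and of Fads3-AS2 and Cebpg-OT2, which rose. Both motifs were searched on both strands, and of 32851 RefSeq windows 7.81% held TGANTCA and 12.4% held TGACNNNGC. The letters TGACGTCA and TGATGNAA were searched as well and had no match in the windows of called members. A match describes letters only.

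Members were mostly low. The median of the mean FPKM over the libraries was 0.217 for all members, 0.176 for LINC, 0.259 for OT and 0.213 for AS names. Only 116 members averaged at least 1 FPKM and 1243 averaged under 0.5. In at least 1 library 656 members were listed at 0. No LINC member overlapped a gene of GENCODE M21, and 182 overlapped a lncRNA gene of RefSeq. Of all members 160 shared at least 50% of both spans with such a RefSeq gene, 74 of them LINC. The last values inside the minimum were 0.1 for LINC531 and 0.1002 for Ttc21a-OT1 in the lowest of their 3 highest libraries. The first outside were 0.09981 for Pkd1l3-OT1 and 0.09971 for Gapdhs-OT1.

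Taking the highest isoform of each locus, the 10 highest members included 5 at genes of secreted liver proteins, namely Mup6-OT2, Mup14-AS1, Mup10-AS1, Rbp4-OT1 and Serpina1b-AS1. Mup6-OT2, over a cluster of major urinary protein genes, ranged from 981 to 1170 FPKM in control, 710 to 1046 in APAP and 531 to 860 in dmPGE2+APAP livers. Reads of its cluster are shared among near-identical copies, so its level is uncertain. Mup14-AS1, Mup10-AS1 and Serpina1b-AS1 lie in families with the same limit. Setd1b-OT1 ranged from 64.8 to 122 FPKM over the libraries, Smarcc2-OT1 from 24.4 to 40.4 and Rbp4-OT1 from 15.9 to 41.1. Fstl1-OT1 moved from 2.96 to 61.9 FPKM within the dmPGE2+APAP group alone. Entpd1-OT1 and LINC448 were the members of the 10 that changed in APAP. The Entpd1-OT1 values, 20.4, 19.2 and 10.9 FPKM in control and 42.8, 42.2 and 53.1 in APAP livers, lay close to those of Entpd1 (22.6, 21.2 and 12.9, then 46.6, 45.4 and 56.0). Entpd1 encodes the ectonucleotidase CD39. The spans overlap and reads of the gene and of the member could not be told apart.

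Across the libraries, summed lncRNA-table FPKM was highest in APAP replicate 3 (30437) and dmPGE2+APAP replicate 2 (29320), against 22559 to 25947 elsewhere. APAP replicate 3 was the highest APAP library for 69 of the 100 members that rose and for 45.9% of all members. Hepatocyte markers summed to between 32270 and 44850 FPKM in every library. Platelet markers (5 of 5 in the table) summed to between 1.60 and 2.05 FPKM in control, 14.2 and 17.7 in APAP and 3.48 and 7.93 in dmPGE2+APAP livers. Neutrophil markers (6 of 6) summed to between 2.15 and 5.98 in control, 8.37 and 35.4 in APAP and 4.64 and 9.89 in dmPGE2+APAP livers. Cholangiocyte markers (4 of 4) summed to between 1.99 and 4.0, 8.16 and 17.5, and 4.83 and 16.8. Lymphocyte markers (4 of 4) went the other way, with 0.83 to 1.52, 0.439 to 0.717 and 0.535 to 0.715. Kupffer cell markers (5 of 5) gave 75.9 to 89.5, 43.15 to 76.05 and 80.4 to 84.1. Endothelial markers (4 of 4) gave 57.1 to 59.3, 49.0 to 66.9 and 66.5 to 68.2. APAP replicate 3 was the lowest library in both of these. Stellate cell markers (4 of 4) gave 80.6 to 108, 111 to 122 and 115 to 130. None of these lists was at 0 in any library. The part of these cells and of replicate 3 in the results below was not tested, and in bulk liver fewer cells of a type and less RNA per cell cannot be told apart.

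The first comparison, APAP against control, asks which assembled transcripts differ in the injured liver. In it 100 members rose and 22 fell at an adjusted p under 0.05 (limma with Benjamini-Hochberg adjustment over all 22984 transcripts, on log2 of scaled FPKM plus 0.1). This was 7.91% of the members, against 3.66% of all transcripts tested (2.73% higher and 0.931% lower). The annotated transcripts gave 527 higher and 192 lower, or 3.35% called. The members' median log2 difference was 0.16, against 0.11 for all tested. The 3 APAP libraries did not overlap the 3 control libraries for 482 members, and for 23.6% of all transcripts. In 24 of the 100 risers every control library was listed at 0, and 6 of the 100 reached 0.1 FPKM in the 3 APAP libraries alone, so that passing the minimum and differing went together. Among the 1525 members that met the minimum in libraries of more than 1 group, 94 rose and 19 fell. Leaving out any 1 control or APAP library lowered the count to between 27 and 76, with 32 called without APAP replicate 3 (background 1.07%).

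The LINC members made up most of the risers. Of 544 LINC members 60 rose and 12 fell (13.2% called), with a median log2 difference of 0.39. Of 706 OT members 18 rose and 5 fell (3.26%), close to the background. Of 292 AS members 22 rose and 5 fell (9.25%). Without APAP replicate 3 the counts were 20 higher and 3 lower for LINC, 2 and 1 for OT, and 6 and 0 for AS. No test set one kind against another.

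**Figure D1:**
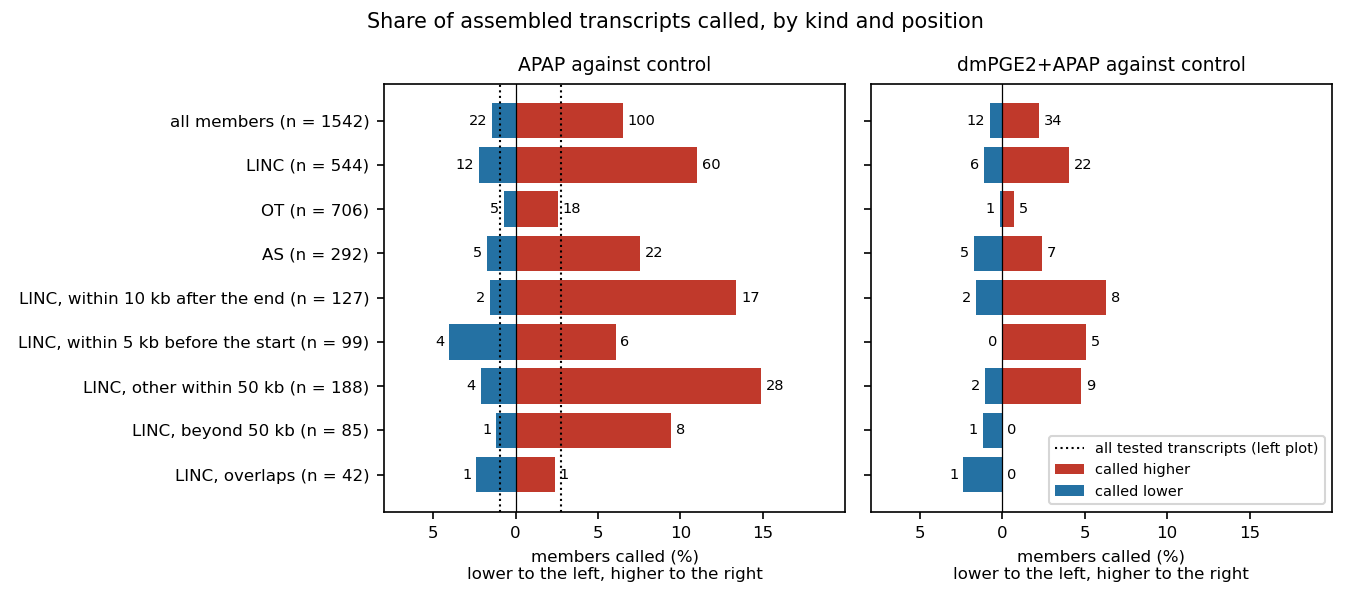
Share of members called higher (right of 0, red) or lower (left of 0, blue), in percent of the members of each kind or position, with the number called beside each bar. In the left plot, APAP against control, the dotted lines mark 2.73% and 0.931%, the shares of all tested transcripts. The LINC bar reaches 60 higher, and the right plot, dmPGE2+APAP against control, has 22.

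Position was read from the nearest gene of the mRNA table, with the gene's strand from GENCODE M21. Of the 127 LINC members that lay within 10 kb after the end of their nearest gene, 17 rose and 2 fell. This was 14.96% called, against 3.66% of all transcripts tested. An unadjusted p under 0.05 was found for 66 of the 127, against 18.69% of all transcripts tested. The median log2 difference of the 127 was 0.87, against 0.11 for all tested. The median of the 127 stayed between 0.69 (without APAP replicate 3) and 1.06 when any single library was left out. The 99 LINC members within 5 kb before a start gave 6 higher and 4 lower (10.1%), with a median of −0.09. The 188 others within 50 kb gave 28 higher and 4 lower (17.0%) with a median of 0.25. The 85 beyond 50 kb gave 8 and 1 (10.6%) with a median of 0.14. The share called was thus largest for the others within 50 kb, and rises were not particular to the downstream class. A further 42 overlapped a gene span that the deposited table draws wider than GENCODE does, and 1 rose and 1 fell (4.76%). Some members of these classes share a locus.

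Where the gene before them had itself risen, 7 of the 19 downstream LINC members rose and none fell, with a median log2 difference of 1.54. Where the gene was tested and not called, 8 of 68 rose and 1 fell, with a median of 0.80. Where the gene fell, 1 of 7 fell and none rose, with a median of 0.34, so this small class did not lie below 0 with its genes. All members gave 7.91% called. In 16 of the 127 downstream members all controls were listed at 0, where the added 0.1 sets the size of the difference. Across members, Pearson's r between a member's log2 difference and its gene's was 0.43 for downstream LINC (n = 94), 0.37 for LINC before a start (n = 91), 0.17 for others within 50 kb (n = 155) and −0.01 beyond 50 kb (n = 57). It was 0.46 for OT (n = 632) and 0.39 for AS names (n = 264), whose spans overlap the gene. These are descriptions across members that share the same 9 libraries.

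**Figure D2:**
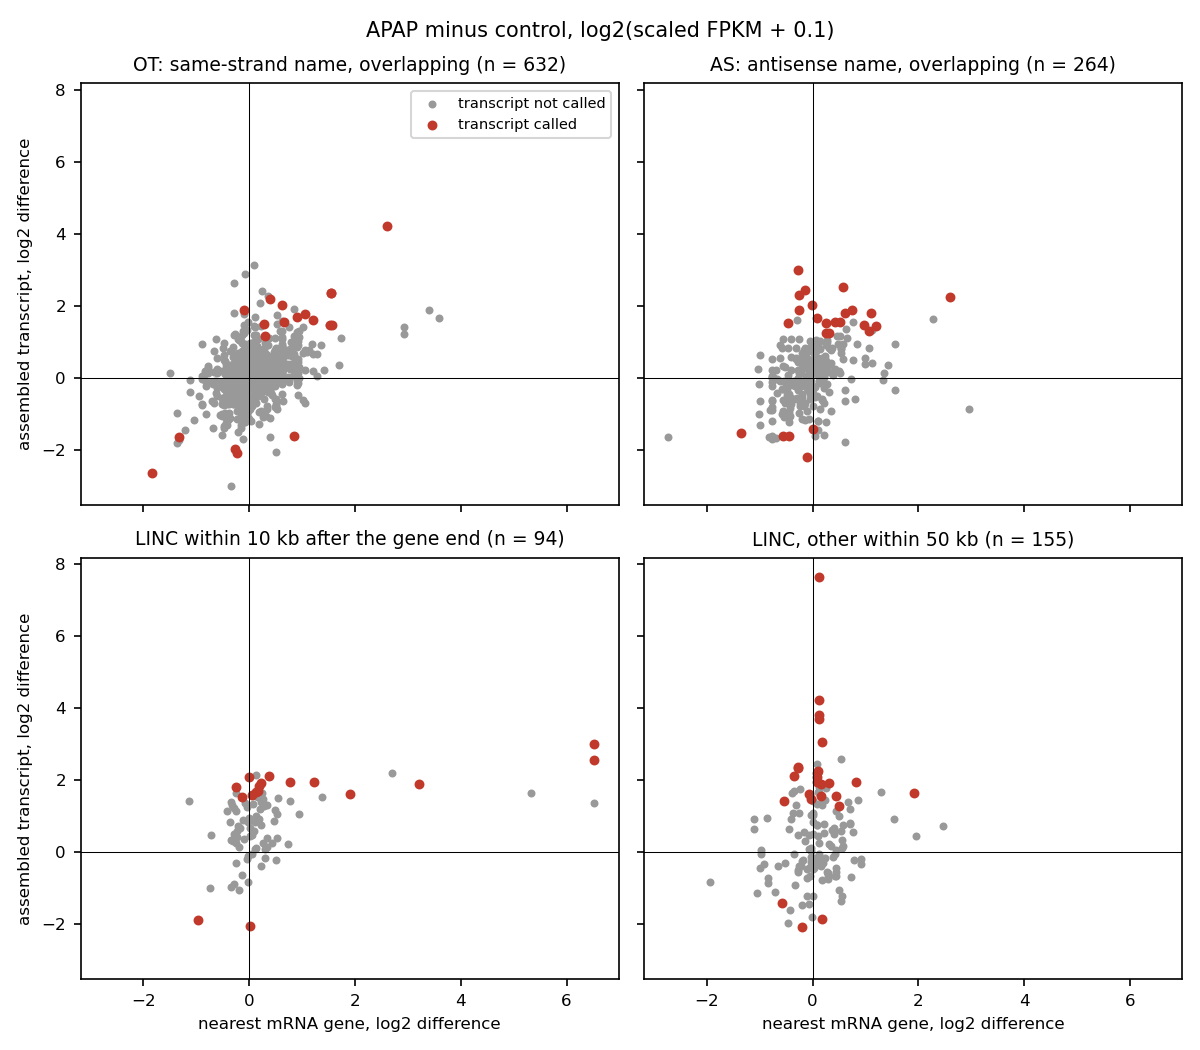
Log2 difference, APAP minus control, of each assembled transcript (vertical axis) against that of its nearest mRNA gene (horizontal axis), for OT, AS and 2 positions of LINC members; red points are called transcripts. Downstream LINC members lie mostly above 0 on the vertical axis, and LINC190 and its neighbours stand at the top of the plot of LINC others within 50 kb, beside a gene near 0.

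The largest rise in the whole set was at an intergenic place on chromosome 13. LINC190 (chr13:55184447-55191756) lay 15688 bases after the end of Fgfr4, which encodes a growth factor receptor of hepatocytes. Its FPKM was listed at 0 in every control library, was 18.4, 40.1 and 11.7 in APAP livers and 3.4, 4.39 and 5.53 in dmPGE2+APAP livers (APAP against control, adjusted p = 0.000311). The 3 groups did not overlap. LINC215 (chr13:55184243-55189736), a second locus over the same bases, held 0.399, 0.370 and 0.117 FPKM in control, 9.32, 3.50 and 3.37 in APAP and 1.70, 1.13 and 0.866 in dmPGE2+APAP livers. It rose 12.9-fold (log2 3.69, SE 0.48, adjusted p = 0.00637). LINC189 and LINC213, of these 2 loci, rose too, while LINC191 was above 0 in 1 library of each group (2.31, 4.55 and 2.26 FPKM) and LINC216 did not pass (adjusted p = 0.137). Fgfr4 itself stayed between 8.09 and 10.4 FPKM in all libraries (adjusted p = 0.458).

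The highest LINC locus was on chromosome 2. LINC448 (chr2:75638373-75647459), 11571 bases from Hnrnpa3, a gene for an RNA-binding protein, held 38.2, 37.3 and 14.3 FPKM in control, 182, 101 and 112 in APAP and 77.1, 40.3 and 40.0 in dmPGE2+APAP livers. It rose 4.56-fold (log2 2.19, SE 0.45, adjusted p = 0.0298), and every APAP library lay above every other library. LINC449, an isoform over the same bases, rose 4.22-fold. Hnrnpa3 was not called (log2 0.08, adjusted p = 0.788). The LINC448 call was lost when any 1 control or APAP library was left out (highest adjusted p = 0.103).

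Another intergenic locus lay on chromosome 4. LINC622 (chr4:143979227-143981625), 9494 bases after Pramef17, held 1.38, 0.188 and 0.366 FPKM in control, 7.87, 5.08 and 7.74 in APAP and 4.29, 2.65 and 2.27 in dmPGE2+APAP livers. It rose 11.5-fold (log2 3.53, SE 0.54, adjusted p = 0.0120). Of the other isoforms of this locus LINC620 was listed at 0 in all controls and held 1.84, 0.252 and 1.95 FPKM in APAP livers, and it rose as well. LINC617, LINC618 and LINC621 gave log2 values of −0.48, −1.15 and −0.54 and did not pass. Summed over its isoforms the locus went from 6.12, 6.20 and 2.82 to 20.3, 13.5 and 21.0 FPKM (adjusted p = 0.0239).

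Other risers lay beside genes that were not called. LINC43 (chr1:83988886-84012109), 24187 bases from Pid1, held 0.0185, 0.0206 and 0.0159 FPKM in control and 0.60, 0.582 and 2.04 in APAP livers (8.32-fold, log2 3.06, SE 0.40, adjusted p = 0.00637). The dmPGE2+APAP livers held 0.751, 0.523 and 0.508, inside the APAP range or just under it. Acot13-AS1, antisense by name to the gene of an acyl-CoA thioesterase, went from 0.0113, 0.0317 and 0.0445 to 0.670, 0.599 and 2.09 FPKM (8.05-fold, log2 3.01, SE 0.40, adjusted p = 0.00697). Acot13 mRNA gave a log2 difference of −0.27 that did not pass (adjusted p = 0.121). Zmym1-AS1 rose 5.78-fold (adjusted p = 0.0168), from at most 0.134 to at least 0.448 FPKM. Its gene gave 0.57, which did not pass either (adjusted p = 0.214). LINC43 and Acot13-AS1 kept their calls under all 20 other settings.

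**Figure D3:**
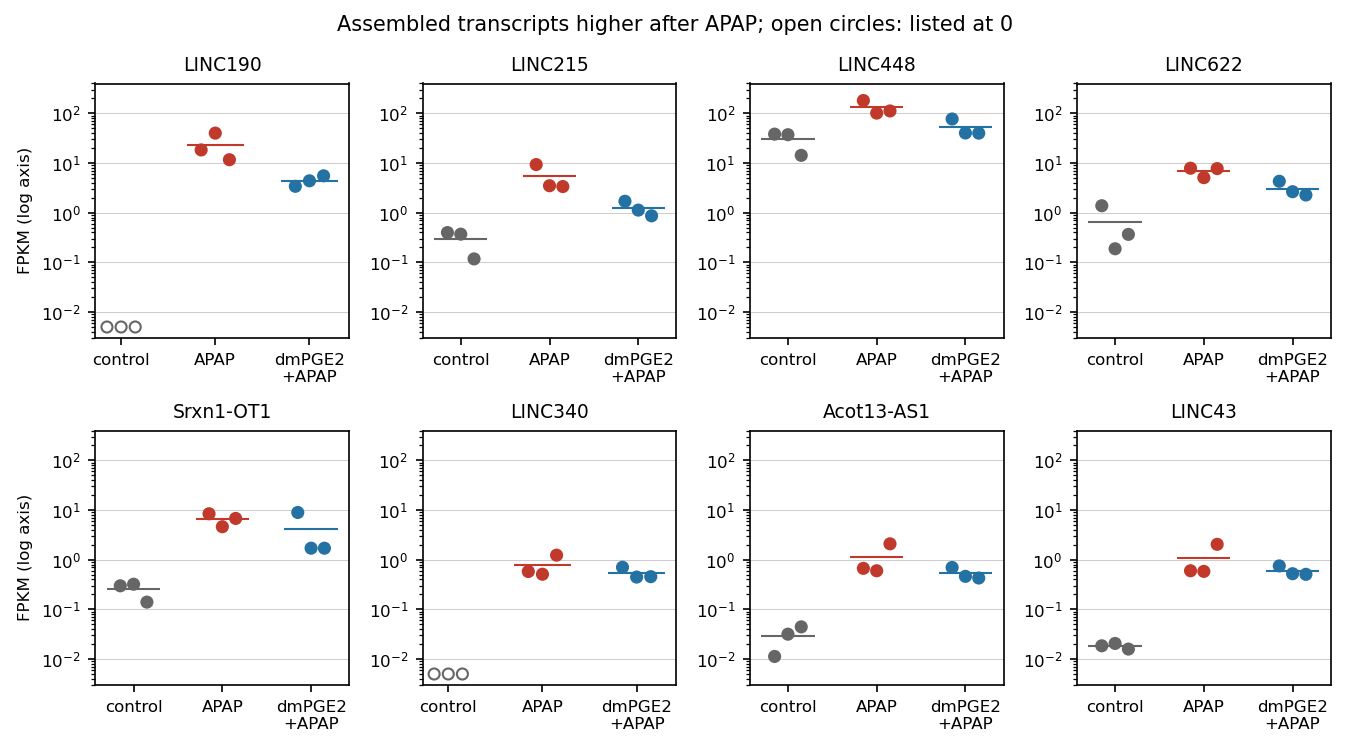
FPKM of 8 members that rose in APAP, by library, on a log axis; lines mark the mean of a group with no library at 0, and open circles at the bottom are libraries listed at 0. LINC190 and LINC340 have no control library above 0, and LINC448 is the highest at up to 182 FPKM.

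Members beside genes of stress pathways, liver function, the circadian clock and RNA processing were taken from 13 lists of 288 genes. Of these genes 25 had a member over them or within 10 kb, 38 members in all, of which 7 rose and 2 fell (23.7% called, against 7.91% of all members and 3.66% of all tested). Several of these members share a locus. The lists were chosen with earlier results of these data known, so this share is a description. The first lay beside targets of NRF2, the antioxidant regulator. Srxn1-OT1 (chr2:152105335-152116841) overlaps Srxn1, which encodes sulfiredoxin, and its window is printed above. The deposited span of Srxn1 is the same, so reads of the gene and of the member could not be told apart here. Srxn1-OT1 went from 0.298, 0.321 and 0.140 FPKM in control to 8.42, 4.62 and 6.78 in APAP livers, and held 8.94, 1.71 and 1.71 in dmPGE2+APAP livers. It rose 18.6-fold (log2 4.22, SE 0.59, adjusted p = 0.00869). Srxn1 rose 6.11-fold (log2 2.61, adjusted p = 0.00661), from between 8.79 and 19.9 to between 46.3 and 103 FPKM, and the member rose against its gene by 1.76 on the log2 scale (adjusted p = 0.0379). That call against the gene was lost when any 1 control or APAP library was left out (adjusted p = 0.0735 to 0.113), and with 1 added in place of 0.1 the difference was 0.16 (adjusted p = 0.706). Gclc-AS1, over the gene of the catalytic subunit of glutamate-cysteine ligase, went from 4.09, 5.13 and 8.47 to 16.7, 13.5 and 17.1 FPKM (2.71-fold, adjusted p = 0.0423), and Gclc rose 2.30-fold. The Gclc-AS1 call was lost under 11 of 20 other settings, among them the loss of any 1 APAP library. Txnrd1-AS1, over thioredoxin reductase, gave a log2 difference of 1.57 that did not pass (adjusted p = 0.0574).

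Past the end of Cdkn1a, the p53 target that encodes the cell cycle inhibitor p21, lay a row of members. LINC340 (chr17:29104127-29105638) began 3400 bases after the gene, was listed at 0 in every control, and held 0.579, 0.510 and 1.24 FPKM in APAP and 0.705, 0.447 and 0.456 in dmPGE2+APAP livers (APAP against control, adjusted p = 0.00265). LINC341, over the same bases, rose too (adjusted p = 0.0389), a call lost under 12 of 19 other settings that include leaving out any 1 control or APAP library, and LINC339 did not pass (0.264). LINC328 (chr17:29105636-29110264), which meets LINC340 end to end and lies between Cdkn1a and Rab44, was also at 0 in the controls and held 0.361, 0.504 and 0.994 FPKM in APAP and 0.645, 0.367 and 0.381 in dmPGE2+APAP livers (adjusted p = 0.00558). Cdkn1a held 2.53, 1.80 and 0.353 FPKM in control, 107, 123 and 107 in APAP and 125, 107 and 100 in dmPGE2+APAP livers (92.0-fold, log2 6.52, adjusted p = 0.000165). Cdkn1a, LINC340 and LINC328 were thus higher in all 6 treated livers than in any control, while LINC339 was also at 0 in 1 APAP liver.

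Other downstream members lay beside immediate early, amino acid and sterol genes. LINC183 (chr13:5872223-5882516), 1829 bases after Klf6, an injury-induced transcription factor, was at most 0.00329 FPKM in control, 0.258, 0.157 and 0.530 in APAP and 0.305, 0.196 and 0.220 in dmPGE2+APAP livers (adjusted p = 0.0185). Klf6 rose 9.24-fold (adjusted p = 2.29e-06). LINC417 (chr19:8696628-8706121), 761 bases after Slc3a2, the heavy chain of amino acid transporters, went from 0.0103, 0.0233 and 0 to 0.274, 0.245 and 0.564 FPKM. LINC417 rose 3.90-fold with 0.1 added to each value (adjusted p = 0.0128), and Slc3a2 rose 1.72-fold. LINC637, 6172 bases after Insig1, a brake on sterol synthesis, was at 0 in all controls and held 0.128, 0.138 and 0.536 FPKM in APAP livers (adjusted p = 0.0475), while Insig1 gave a log2 difference of 0.13 (adjusted p = 0.722). The LINC637 call was lost under 15 of 19 other settings. LINC412 after Dusp5, a phosphatase of ERK, and LINC318 after Nfkbiz, an NF-kB cofactor, were at 0 in all controls and above 0 in all APAP livers without passing (adjusted p = 0.0813 and 0.262). LINC318 held 0.515, 0.000113 and 1.70 FPKM, a wide spread within 1 group.

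The 22 falls were spread over unrelated loci. Of them 3 reached 0.1 FPKM in the 3 control libraries alone, so that passing the minimum and differing went together. LINC231 (chr14:36970013-36976913) lay next to the annotated start of Ccser2, within the span that the deposited table gives this gene. It went from 1.23, 2.26 and 1.59 FPKM in control to 0.314, 0.347 and 0.339 in APAP and 0.316, 0.463 and 0.263 in dmPGE2+APAP livers (log2 −2.03, SE 0.29, adjusted p = 0.00992). Ccser2 itself was not called (log2 0.06, adjusted p = 0.678). LINC472 (chr2:27568436-27581038), 31901 bases from Wdr5, went from 0.797, 0.742 and 0.905 to 0.117, 0.155 and 0.0884 FPKM (log2 −2.07, SE 0.31, adjusted p = 0.0106). These falls kept their calls under all 20 other settings, and the dmPGE2+APAP livers lay as low as the APAP livers in both.

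Slc38a4-AS1 (chr15:97044146-97107180), antisense by name to the gene of a liver amino acid transporter with 1 end 6 bases from the Gm32840 start printed above, went from 1.44, 1.30 and 1.79 FPKM to 0.282, 0.479 and 0.0917 (log2 −2.20, SE 0.43, adjusted p = 0.0259). The dmPGE2+APAP livers held 0.617, 0.950 and 1.17, between the other groups. The call was lost under 8 of 20 other settings, and summed over its isoforms the locus did not pass (log2 −1.29, adjusted p = 0.0817). Slc38a4 mRNA gave −0.10 (adjusted p = 0.716). The spans of Slc38a4-AS1 and of Gm32840, a RefSeq lncRNA gene, overlap by at least 50% of each. Mup2-OT1, in the urinary protein cluster and thus uncertain, went from 17.9, 12.2 and 7.53 to 2.58, 3.27 and 2.46 FPKM (adjusted p = 0.0316), with 12.9, 13.6 and 5.21 in dmPGE2+APAP livers. Tiam2-OT1 had the largest of the called falls (log2 −2.64, SE 0.49, adjusted p = 0.0222), from 0.646, 0.695 and 2.04 to 0.129, 0.0222 and 0.0956 FPKM, beside a fall of Tiam2 by 1.84 on the log2 scale. LINC112, after Lyrm9, and Gm20695-OT1 were listed at 0 in all 3 APAP livers and held at least 0.141 and 0.259 FPKM in the controls. For both the added 0.1 sets the size of the fall. LINC99 and LINC420 also fell (log2 −1.85 and −2.06), from at least 0.297 and 0.496 FPKM in the controls to at most 0.0796 and 0.142 in APAP livers. Among these falls the call was lost under 7 of 20 other settings for Mup2-OT1, 5 of 20 for Tiam2-OT1, 5 of 19 for LINC112, 6 of 19 for Gm20695-OT1, 7 of 19 for LINC420 and 11 of 19 for LINC99.

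A pair of falls lay at genes of liver metabolism. LINC766 (chr7:140762365-140763634) ended 105 bases before the deposited span of Cyp2e1, the cytochrome that turns acetaminophen into its toxic product, and 185 bases before the RefSeq start in the window printed above. It went from 0.281, 0.375 and 0.221 FPKM in control to 0, 0.0169 and 0.0225 in APAP and 0.114, 0.0779 and 0 in dmPGE2+APAP livers (log2 −1.78, SE 0.35, adjusted p = 0.0267), a call lost under 9 of 19 other settings. Cyp2e1 held 2760 to 3955 FPKM in control and 2364 to 3007 in APAP livers, which did not pass (log2 −0.25, adjusted p = 0.395). LINC492 (chr2:173139651-173148171), 4877 bases before Pck1, the gluconeogenic enzyme, went from 0.224, 0.715 and 1.15 to 0.117, 0.0243 and 0.0849 FPKM (log2 −2.03, SE 0.46, adjusted p = 0.0426). Summed over its isoforms the locus was not called (adjusted p = 0.370). Its sister isoforms LINC491 and LINC493 gave log2 values of 0.39 and 0.23 that did not pass, so 1 isoform of this locus was called, and its call was lost under 13 of 19 other settings. No member near Cps1, Baat, Afp, Cyp7a1, Cyp8b1 or Cyp2c37 passed. Cyp7a1-AS1, over the gene of the enzyme that starts bile acid synthesis, held 0.135, 0.601 and 0.383 FPKM in control and 0.0133, 0.0382 and 0.0731 in APAP livers (adjusted p = 0.179), and Cyp7a1 fell by 2.73 on the log2 scale (adjusted p = 0.0244).

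**Figure D4:**
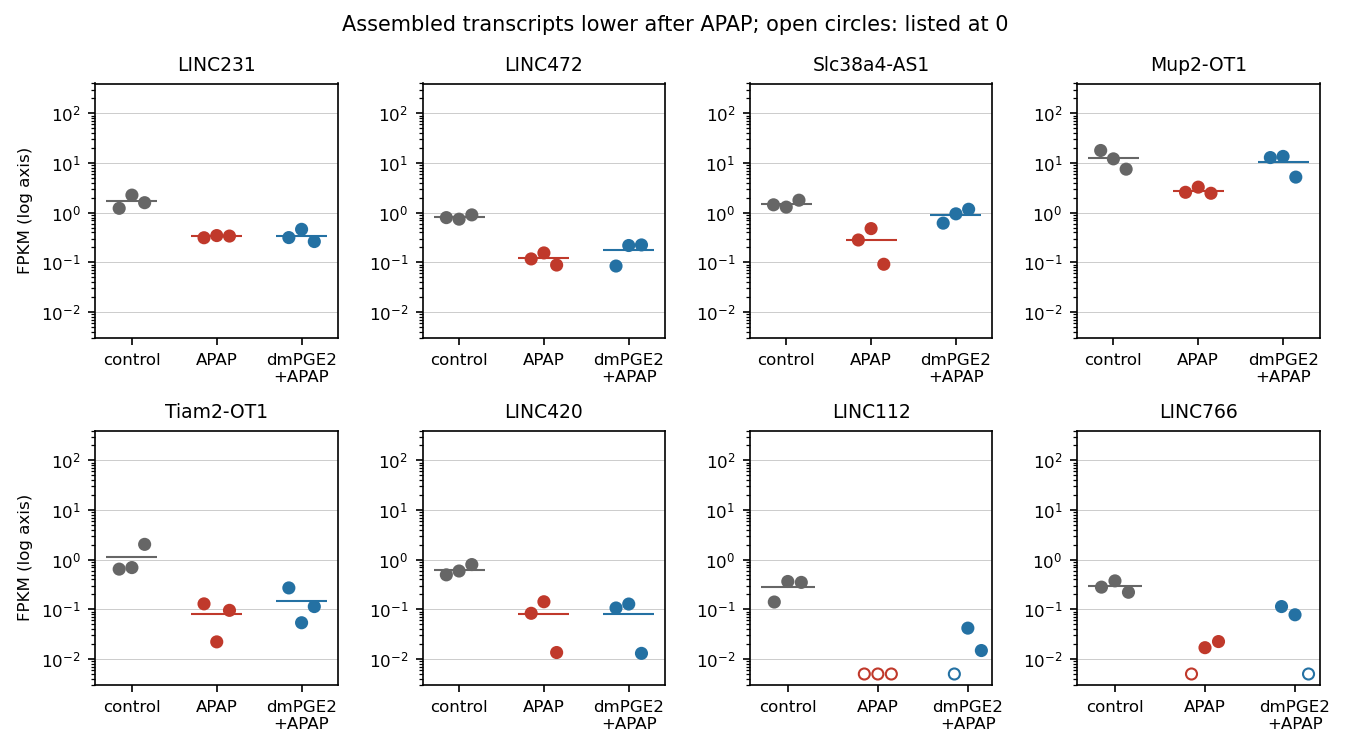
FPKM of 8 members that fell in APAP, by library, on a log axis; lines mark the mean of a group with no library at 0, and open circles are libraries listed at 0. The APAP points of LINC231 and LINC472 lie with the dmPGE2+APAP points, and those of Slc38a4-AS1 and Mup2-OT1 lie below them.

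Each member was also set against its nearest gene, as the difference of their log2 values. In APAP against control 41 of 1332 members rose against their gene and 10 fell, with 1.08% of all transcript and gene pairs called. The members of the LINC190 and LINC215 loci rose against Fgfr4, which was not called: LINC190 with adjusted p = 0.000109, LINC189 by 4.27, LINC213 (listed at 0 in all controls) with adjusted p = 0.00913, and LINC215 by 3.72 on the log2 scale. Leaving out APAP replicate 3 ended the call of LINC215 (adjusted p = 0.0527). LINC340 and LINC412 were called lower against Cdkn1a and Dusp5, whose mRNAs rose 92.0-fold and 40.0-fold (adjusted p = 0.0377 and 0.0271). Both are at 0 in every control, so the added 0.1 sets the size of these differences, and with 0.01 added neither was called (adjusted p = 0.853 and 0.462). Slc16a6-AS1 fell behind by 3.67 (adjusted p = 0.0162): Slc16a6, a monocarboxylate transporter gene, went from between 1.65 and 1.96 to between 12.8 and 13.9 FPKM, while the member held 0.287, 0.819 and 0.405 in control and 0.120, 0.211 and 0.365 in APAP livers. Leaving out control replicate 2, control replicate 3 or any 1 APAP library ended this call (adjusted p up to 0.0631). Because 0.1 is added before the log, the change of a low member is understated against that of a high gene. Without APAP replicate 3 the count was 5 instead of 51, all upward: LINC43, Acot13-AS1, LINC190, LINC213 and LINC865. With 1 in place of 0.1 it was 178.

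Genes of the machinery that ends transcripts and clears short-lived RNA were read from the mRNA table. Of 32 tested genes of 3′ end formation and termination 6 rose and 4 fell in APAP, and of 20 genes of the nuclear exosome and its adaptors 1 rose (Mphosph6, log2 0.54), with 20.9% of all 11557 mRNA genes called. Pcf11, a cleavage and termination factor, went from 7.38, 8.03 and 7.08 to 14.6, 12.4 and 15.8 FPKM (log2 1.03, SE 0.13). Cstf3, a cleavage stimulation subunit, rose by 0.69 on the log2 scale. Papola, the main poly(A) polymerase, fell by 0.57 and Cpsf2, a subunit of the cleavage complex, by 0.52. The first list thus moved in both directions. Between the treated groups no gene of either list was called, and 0% of all 11557 mRNA genes were.

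The second comparison, dmPGE2+APAP against APAP, asks whether the prostaglandin analogue given first altered these transcripts. No member was called (limma, smallest adjusted p = 0.0886), and 0% of all 22984 transcripts were. At an unadjusted p under 0.05 there were 116 members (7.52%, against 6.62% of all tested), and the median log2 difference was −0.06 (−0.04 for all tested). The members with the smallest p are given with their values. Gsdme-OT1, over the gene of a pore-forming gasdermin, was at 0 in all controls and all dmPGE2+APAP livers and held 0.302, 0.469 and 0.351 FPKM in APAP livers (adjusted p = 0.0886). LINC217 (chr13:62291686-62296755), 55542 bases from the nearest gene, had the same pattern with 1.91, 0.371 and 0.793 FPKM in APAP livers (adjusted p = 0.125). LINC409, at the 4931408D14Rik start printed above, held 0.255, 0.222 and 0.157 FPKM in control, 0.896, 0.578 and 0.841 in APAP and 0.140, 0.168 and 0.0801 in dmPGE2+APAP livers (log2 −1.87 against APAP, adjusted p = 0.128). Gsdme-OT1 and LINC217 reached the minimum only through the 3 APAP libraries, so their separation from the other groups was set by the choice of members. Gsdme-OT2, over the same bases, held 0.343, 0.422 and 0.561 FPKM in control, 0.509, 0 and 0.167 in APAP and 0.745, 0.374 and 0 in dmPGE2+APAP livers, and the sum of the locus was not called (APAP against control, log2 0.33, adjusted p = 0.838). For LINC409 the treated groups did not overlap.

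In the other direction, Arsg-OT1 held 0.0161, 0 and 0 FPKM in APAP and 0.392, 0.569 and 0.344 in dmPGE2+APAP livers, against 0.199, 0.158 and 0.337 in control (log2 2.36, adjusted p = 0.0886), while the sum of its locus gave 0.10 (adjusted p = 0.972). Arsg-OT6, the highest isoform of this locus with a positive difference, gave 0.25 (adjusted p = 0.957). Glt1d1-OT1 held 0.197, 0.171 and 0.183 FPKM in APAP and 0.554, 1.04 and 0.742 in dmPGE2+APAP livers, near the control values of 0.444, 0.723 and 0.512 (log2 1.65, adjusted p = 0.232). Nat8f2-AS1 held 0.0161, 0.0255 and 0.0293 in APAP and 0.271, 0.410 and 0.363 in dmPGE2+APAP livers, against 0.255, 0.377 and 0.0657 in control (log2 1.88 against APAP, adjusted p = 0.332). Nat8f2 mRNA was 320 to 350 FPKM in control, 138 to 169 in APAP and 151 to 160 in dmPGE2+APAP livers. The gene fell in APAP against control (log2 −0.99, adjusted p = 0.000438). Leaving out dmPGE2+APAP replicate 1 gave a single call, a fall of Wrn-OT1, named after its values were seen.

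Against control, the dmPGE2+APAP livers had 34 members higher and 12 lower (2.98%, against 1.79% of all tested). By kind these were 22 and 6 for LINC, 5 and 1 for OT and 7 and 5 for AS names. This comparison and the first share their control libraries. Of the 100 members that rose in APAP, 90 had a dmPGE2+APAP mean between those of control and APAP, and so had 17 of the 22 that fell. Choosing members by their APAP values favours such a middle position. Leaving out any 1 dmPGE2+APAP library left 6 to 8 members called.

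Summed over all members, FPKM was 2114 ± 131 (SD, n = 3) in control, 2322 ± 153 in APAP and 1869 ± 111 in dmPGE2+APAP livers. The difference between APAP and control was 207.7 FPKM (exact permutation test, two-sided, p = 0.2, where 0.1 is the smallest p that 3 against 3 allows). Without Mup6-OT2, whose level is uncertain, the sums were 1008 ± 132, 1392 ± 51.4 and 1190 ± 61.3 FPKM. APAP minus control was then 384.1 FPKM, and dmPGE2+APAP minus control turned from −244.7 to 181.6 (exact permutation p = 0.1 each). The LINC members alone summed to 223, 238 and 150 FPKM in control, 490, 428 and 551 in APAP and 368, 277 and 250 in dmPGE2+APAP livers. The 3 groups of LINC sums did not overlap (exact permutation p = 0.1 for each pair). Without the loci of LINC448, LINC190 and LINC215 the sums were 176, 183 and 128, then 252, 244 and 315, then 248, 199 and 179, and the treated groups overlapped (exact permutation p = 0.2). OT members summed to 1616 ± 89.2, 1529 ± 195 and 1263 ± 134 FPKM, led by Mup6-OT2, and AS members to 294 ± 34.2, 303 ± 19.5 and 308 ± 34.4.

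**Figure D5:**
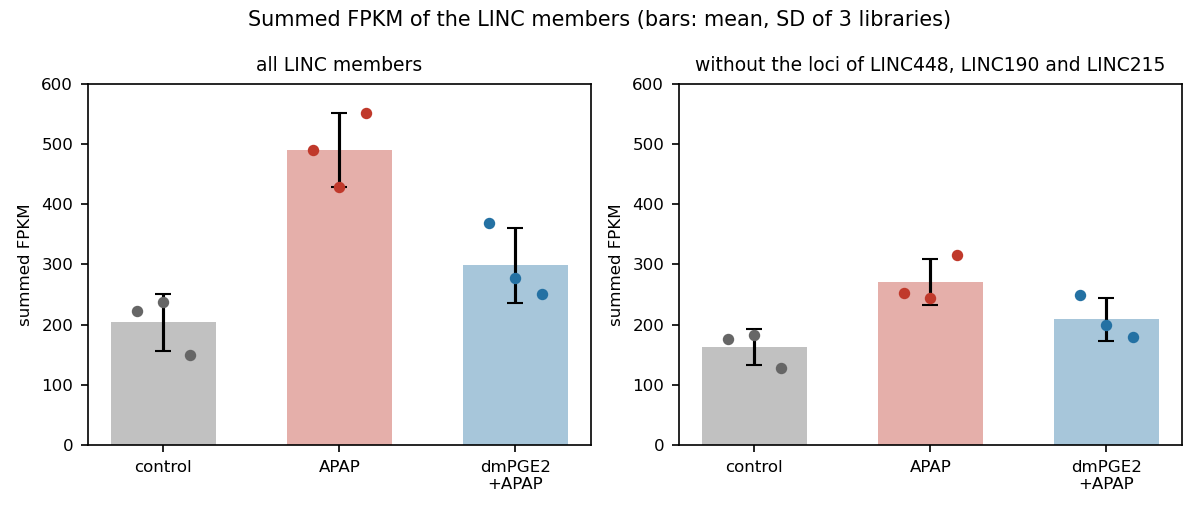
Summed FPKM of the LINC members by group, with the mean as bars, the SD of 3 libraries as error bars and each library as a point. The left plot holds all LINC members, from 150 to 551 FPKM, and the right plot leaves out the loci of LINC448, LINC190 and LINC215.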

How the data were processed

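Total RNA of mouse liver (9 libraries) was depleted of ribosomal RNA and made into dUTP strand-marked libraries, per the labels' protocols. The submitters' processing notes name the aligner HISAT2 and the build GRCm38 (mm10). The assembler, the quantifier and the filters are not given in the sources used here. The authors deposited FPKM tables for mRNA genes and for lncRNA transcripts. Their deposited lncRNA table named as read counts holds scores that equal FPKM times the genomic span times a constant (100% of assembled transcripts with a score of at least 1000 within 1%), so these are not counts, no count test was run, and sequencing depth and counting error are unknown.

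The FPKM of lncRNA-table transcripts was divided by trimmed-mean scale factors from both tables (30% of ratios and 5% of abundances trimmed). Then 0.1 was added and log2 values were fitted with limma 3.58.1 (R 4.3.3, trended variance, 3 group means over all 9 libraries). P-values were Benjamini-Hochberg adjusted over the 22984 transcripts that reached 0.1 FPKM in 3 or more libraries, and the threshold was 0.05. Rescaling moved the log2 differences of transcripts by −0.03 in APAP against control and by 0.07 in dmPGE2+APAP against APAP. mRNA genes needed 0.5 FPKM in 3 libraries and were fitted alike, with scale factors from the mRNA table alone. These moved their log2 differences by 0.12 in APAP against control and by 0.02 in dmPGE2+APAP against APAP. Differences of a member and of its gene given side by side thus rest on different scale factors. A fold is 2 to the power of the difference on the log2(FPKM + 0.1) scale, understates changes of low transcripts, and is not given against a group listed at 0. The difference between a transcript and its nearest gene was fitted on unscaled values. The fitting code was tested on simulated data for APAP against control. It called 4% of rises of 1 on the log2 scale, 30% of rises of 2 and 82% of rises of 3. Of falls of 1 it called 2%, and 3.28% of its calls were false. A missing call therefore does not show that a transcript was unchanged.

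The planned positions needed strands that the files do not give, so LINC members were placed by their gene's strand alone. Of 21870 mRNA-table genes 21839 were found in GENCODE M21 and 92.5% of these had the same coordinates. Named members are the 10 highest, the 10 largest called rises and falls without overlap, the 3 smallest p each way between the treated groups, all members near listed genes and the 5 largest differences from a gene. At a locus the highest isoform was named, and in the treated comparison also the one with the smallest p. Members and lists were chosen with earlier results of these data known. Locus ends on chromosome 18 were not searched for RefSeq start windows.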

Additional observations from a re-analysis of the deposited data

How the results depend on the processing

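No named change reversed under any setting tried, where changes called neither in the main fit nor under the setting were not counted. Of 31 named calls 11 were kept under all settings. Many of these calls were named for their size in these data, so the count is no separate support. Leaving members of 1 group alone out of the count used the same fit, so named calls could not change there. Gsdme-OT1, which was kept, reached the minimum through the APAP libraries alone. In APAP against control (122 members called) the count was 70 with a pseudocount of 1, 54 with a minimum of 0.5 FPKM in 3 libraries, 66 with no filter and 69 with only the 2 groups fitted. Leave-one-out gave 27 to 120. In dmPGE2+APAP against control (46) these were 16, 26, 25 and 20, and 6 to 43. With a pseudocount of 1 the split of that comparison was 6 higher and 10 lower, against 34 and 12, and that of the first was 50 and 20, against 100 and 22. With only the 2 groups fitted dmPGE2+APAP against control gave 20 higher and 0 lower, and APAP against control 56 and 13. In dmPGE2+APAP against APAP every setting gave 0 but 1, with leave-one-out between 0 and 1. Against the nearest gene (51 in APAP against control) a pseudocount of 1 gave 178, pairs within 10 kb gave 27, and leave-one-out 5 to 51. Between the treated groups a pseudocount of 0.01 gave 2 (Arsg-OT1 and Gsdme-OT1). The cause of these differences was not tested, beyond fewer samples or fewer transcripts in the fit.

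The replicate numbers did not pair the libraries: no same-numbered pair of 9 correlated above 0.1, and 3 of 9 libraries correlated best with their own number. With the replicate number as a block the counts were 67, 0 and 8 in the 3 comparisons, and 12 and 0 against the nearest gene. Chosen after seeing the data, summing the members of a locus gave 86 loci higher and 15 lower, and weighting libraries gave 120 calls in the first comparison. Low FPKM and unknown depth limit what can be said of members under 0.5 FPKM.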
